A study of Arabidopsis thaliana with 18 samples.

Results

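The genes described here are the 44 nuclear genes of Arabidopsis thaliana that encode the light-harvesting proteins LHCA1 to LHCA4 and LHCB1 to LHCB6, the nuclear-encoded subunits of photosystems I and II, and the small subunit of Rubisco. They were taken by gene ID, with earlier results of these data known, and all 44 were found among the 33602 gene IDs of the count table. By role they comprised 4 genes of the photosystem I antenna (LHCI), 9 of the major photosystem II antenna (LHCII), 5 of the minor photosystem II antennae, 12 photosystem I subunits, 10 photosystem II subunits and 4 Rubisco small subunit genes (RBCS). All 44 passed the filter on low counts and were among the 19897 genes tested.

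The antenna proteins bind chlorophyll and pass light energy to the reaction centres of the photosystems, which drive electron transport across the thylakoid membrane of the chloroplast. Rubisco, which fixes carbon dioxide, is built from a large subunit encoded in the chloroplast and small subunits encoded in the nucleus. The nuclear genes of these complexes are known to be induced by light and regulated by the circadian clock, and many of them belong to families of closely related copies.

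RNA was sequenced from whole rosettes of ecotype Columbia-0, each library holding a pool of 5 rosettes from different pots. The plants were grown with 16 h of light and 8 h of darkness and were harvested at 18 days, 6.5 h after subjective dawn, so every value belongs to a single time of day. The 18 libraries, 3 for each of 6 genotypes, came from wild type plants, from the single mutants ref2-1 and ref5-1, from the double mutant med5a-1 med5b-1, and from the triple mutants that add either ref allele to that double mutant. The ref5-1 allele is a missense change in CYP83B1, a P450 of indole glucosinolate synthesis, ref2-1 affects CYP83A1, the related enzyme of aliphatic glucosinolate synthesis, and med5a-1 and med5b-1 affect the paralogous Mediator subunit genes MED5A and MED5B. Each allele is represented by a single line, and med5 is written below for med5a-1 med5b-1. The design describes the 3 libraries of a genotype as biological triplicates. A p-value weighs a difference against the spread among replicate libraries, estimated for each gene over all 6 genotypes with information shared across genes. It does not use the spread of the compared genotypes alone. The study asks what loss of each P450 does to the transcriptome with and without MED5.

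Between 19578169 and 33193849 counts fell on genes in a library. The 44 genes took 12.1% to 15.6% of them, and 1 CPM stood for 18.95 to 31.84 counts. CPM are gene counts per 1000000 on scaled library sizes. CYP83A1 stood at 402 ± 58.8 CPM (mean ± SD, n = 3) in wild type, 122.9 ± 6.06 in ref2-1 and 138 ± 17.2 in ref2-1 med5, and MED5B at 24.5 ± 1.03 in wild type and 6.68 ± 0.378 to 8.10 ± 0.446 in the genotypes with med5. MED5A was lower in med5 but less so, and the ref5-1 med5 libraries overlapped those of ref2-1, which lacks med5a-1. It was at 49.5 ± 3.57 CPM in wild type, 49.6 ± 2.39 in ref5-1 and 39.1 ± 3.76 in ref2-1, and at 31.6 ± 2.39 in med5, 38.7 ± 1.85 in ref5-1 med5 and 26.7 ± 3.05 in ref2-1 med5. CYP83B1, at 254 ± 82.9 in wild type and 247 ± 21.6 in ref5-1, cannot check a missense allele. Reads with several alignments made up 3.71% to 8.91% of 17 libraries and 25.4% of ref5-1 med5 replicate 1, which also had the highest share of chloroplast gene counts, 0.263%. The mesophyll genes CA1 and RCA were at 3307 CPM or more in every genotype's mean, whereas the root genes NRT2.1 and WOX5 did not exceed 0.491 and 0.843 CPM in any library. Of the meristem genes, WUS did not exceed 0.176 CPM and STM was at 4.58 to 12.1 CPM.

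Several of the antenna and RBCS genes are near-identical copies, and their sequences are shown because reads that fit more than 1 copy were left out of the counts. LHCB1.1 (AT1G29920), LHCB1.2 (AT1G29910) and LHCB1.3 (AT1G29930) lie side by side on chromosome 1 and their coding regions of 804 bases were 95.7% to 96.4% identical. In the first 180 coding bases they differed at 12 positions, shown in capitals in the RefSeq sequences of the TAIR10.1 assembly (coding regions chr1:10475089-10475892, minus strand, chr1:10472443-10473246, minus strand, and chr1:10478071-10478874, plus strand).
LHCB1.1: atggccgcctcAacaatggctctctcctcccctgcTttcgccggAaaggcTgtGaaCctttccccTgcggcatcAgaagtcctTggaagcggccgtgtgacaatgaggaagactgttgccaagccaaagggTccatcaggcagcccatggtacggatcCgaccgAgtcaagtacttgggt
LHCB1.2: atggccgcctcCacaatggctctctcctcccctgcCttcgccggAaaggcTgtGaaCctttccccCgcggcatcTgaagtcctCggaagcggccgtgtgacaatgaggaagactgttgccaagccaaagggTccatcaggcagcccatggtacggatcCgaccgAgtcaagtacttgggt
LHCB1.3: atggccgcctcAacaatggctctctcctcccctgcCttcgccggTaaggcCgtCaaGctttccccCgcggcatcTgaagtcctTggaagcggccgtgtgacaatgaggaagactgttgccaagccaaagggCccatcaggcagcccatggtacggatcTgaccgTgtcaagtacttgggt

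RBCS1B (AT5G38430), RBCS2B (AT5G38420) and RBCS3B (AT5G38410) form a similar row on chromosome 5. RBCS1B and RBCS2B were 97.3% identical over 546 coding bases, and RBCS3B was 94.1% and 94.3% identical to them. The first 180 coding bases of the 3 copies differed at 15 positions, again in capitals (coding regions with their introns chr5:15384350-15385155, chr5:15381203-15381978 and chr5:15377501-15378306, all on the minus strand).
RBCS1B: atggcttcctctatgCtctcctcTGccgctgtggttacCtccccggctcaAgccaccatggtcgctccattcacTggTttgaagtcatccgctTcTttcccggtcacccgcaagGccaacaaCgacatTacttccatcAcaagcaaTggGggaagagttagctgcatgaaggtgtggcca
RBCS2B: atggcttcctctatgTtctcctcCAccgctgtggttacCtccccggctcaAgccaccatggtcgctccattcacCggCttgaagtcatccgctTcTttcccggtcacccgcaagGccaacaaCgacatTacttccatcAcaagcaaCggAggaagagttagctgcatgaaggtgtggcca
RBCS3B: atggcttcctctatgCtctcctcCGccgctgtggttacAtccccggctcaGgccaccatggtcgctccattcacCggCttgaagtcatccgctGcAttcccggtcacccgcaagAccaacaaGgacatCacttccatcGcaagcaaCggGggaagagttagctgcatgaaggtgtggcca
RBCS1A (AT1G67090), on chromosome 1, was 87.7% to 90.1% identical to these copies. Of the 44 genes, 12 shared at least 1 stretch of 50 bases with another gene's transcript and 10 shared over 10% of such stretches, with the highest share, 28.2%, in LHCB2.2. Those 10 were the 5 LHCB1 genes, LHCB2.1, LHCB2.2, RBCS1B, RBCS2B and RBCS3B, whose single counts are therefore uncertain, and copies were also summed. The sums lack the multi-aligned reads too, so summing does not remove this limit. RBCS1A shared 1.48% and LHCB2.3 none. A further limit is that 15 of the genes overlap an annotated gene on the opposite strand, and whether the counting used the strand is not given in the sources used here.

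One promoter motif, which the choice of genes did not use, was found in more of the antenna genes than of the other genes, though not in all of them. The hexamer CCAATC was present in the 250 bases before the annotated gene start of 10 of 18 antenna genes and of 1 of the 26 other genes, against 10.2% of 27443 promoters of the same length. The G-box CACGTG occurred in 20.5% of the 44 promoters and in 6.49% of all, the I-box GATAAG in 22.7% and 12.3%, the CCA1 site AAAAATCT in 11.4% and 6.69%, and TATAAA in 43.2% and 47.4%. Matches were counted on both strands, and none of these motifs contains another, though neighbouring matches may overlap in part. Promoters of related copies, such as LHCB2.1 and LHCB2.2, which both held CCAATC, do not count as independent. The windows end at the RefSeq gene start, which may lie upstream of the start used in rosettes. The promoters of LHCB2.3 (chr3:10255656-10255905, plus strand), LHCA1 (chr3:20341177-20341426, minus strand), LHCB4.3 (chr2:16745378-16745627, plus strand) and RBCS2B (chr5:15382072-15382321, minus strand), all TAIR10.1, are printed because these genes mark the main patterns below. Capitals mark the G-box, I-box, CCA1 site and CCAATC motif.
LHCB2.3: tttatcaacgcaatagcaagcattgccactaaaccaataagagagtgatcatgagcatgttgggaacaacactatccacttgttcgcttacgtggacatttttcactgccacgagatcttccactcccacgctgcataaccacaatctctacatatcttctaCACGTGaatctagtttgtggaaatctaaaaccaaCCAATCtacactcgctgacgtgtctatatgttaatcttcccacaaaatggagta
LHCA1: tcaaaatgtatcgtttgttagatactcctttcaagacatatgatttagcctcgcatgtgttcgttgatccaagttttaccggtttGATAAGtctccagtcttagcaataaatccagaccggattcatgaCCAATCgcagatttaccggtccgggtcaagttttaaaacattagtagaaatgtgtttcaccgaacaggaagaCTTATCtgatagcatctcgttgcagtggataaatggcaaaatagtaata
LHCB4.3: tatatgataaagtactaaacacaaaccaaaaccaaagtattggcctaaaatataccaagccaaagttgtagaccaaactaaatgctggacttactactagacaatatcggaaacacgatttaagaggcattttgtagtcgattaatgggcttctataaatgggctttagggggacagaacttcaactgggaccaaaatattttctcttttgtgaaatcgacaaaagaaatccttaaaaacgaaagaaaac
RBCS2B: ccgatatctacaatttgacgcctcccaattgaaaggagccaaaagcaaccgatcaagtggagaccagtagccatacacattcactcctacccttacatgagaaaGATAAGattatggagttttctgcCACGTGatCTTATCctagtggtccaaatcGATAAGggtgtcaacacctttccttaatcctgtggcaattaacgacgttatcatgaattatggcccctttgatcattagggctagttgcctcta
The LHCB2.3 window held 1 G-box and 1 CCAATC motif, the LHCA1 window 2 I-boxes and 1 CCAATC motif, and the RBCS2B window 1 G-box and 3 I-boxes. In the LHCB4.3 window none of these 4 motifs was found.

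Transcripts of the photosystem and Rubisco genes were lowest in ref2-1 when summed. The 44 genes summed to 141000, 137500 and 148100 CPM in wild type and to 118200, 121100 and 124900 CPM in ref2-1. In ref5-1 the sums were 158400, 147200 and 138100 CPM and in med5 144800, 158400 and 159900. In ref5-1 med5 they were 145100, 160100 and 128900 CPM and in ref2-1 med5 142800, 134600 and 138300. All 3 ref2-1 libraries lay below all 15 others. In bulk RNA, fewer cells of a type and less RNA per cell cannot be told apart.

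**Figure D1:**
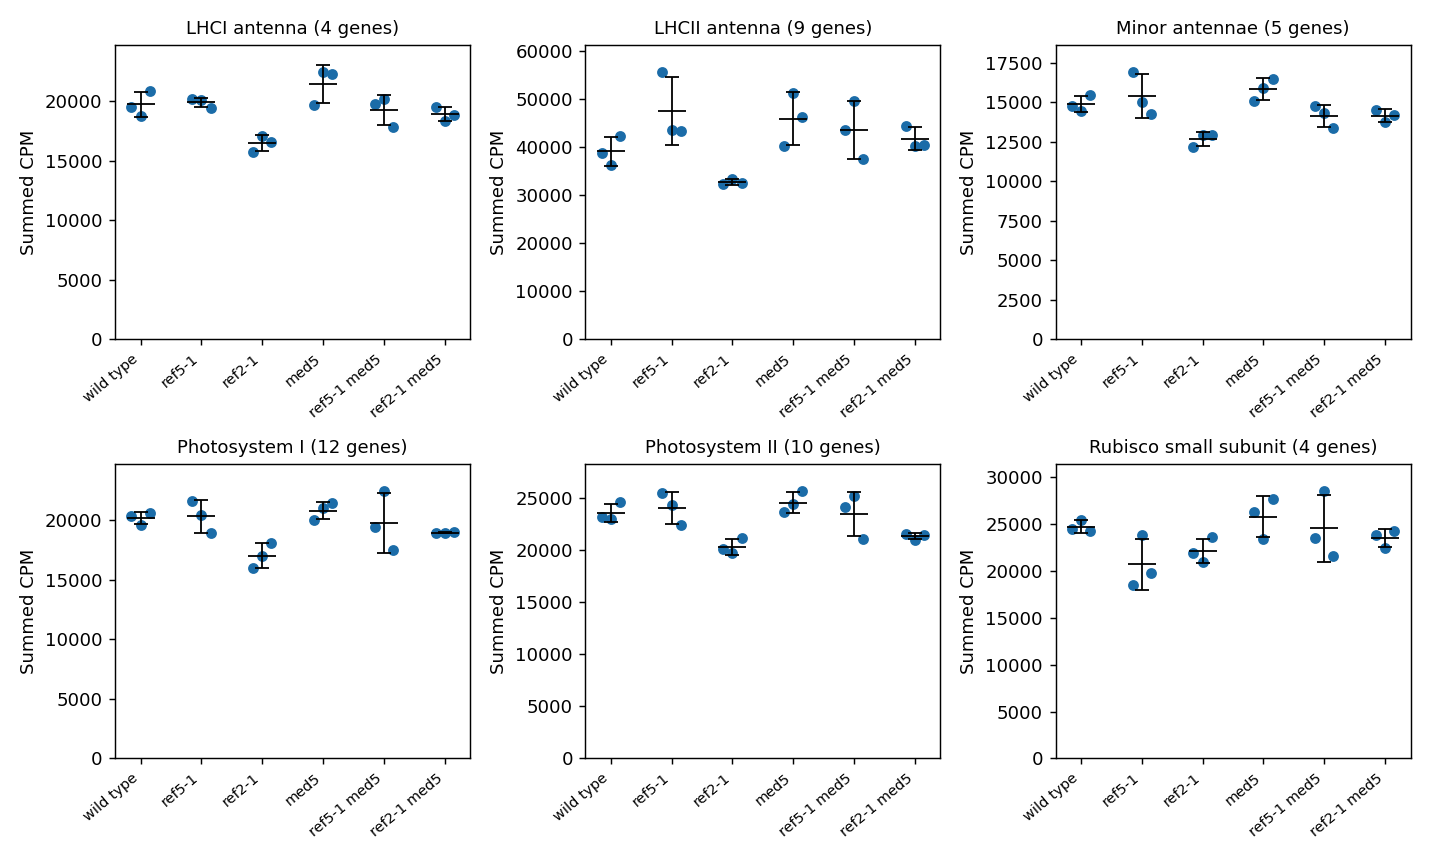
Summed CPM of each complex (y axis) in the 6 genotypes (x axis, med5 for med5a-1 med5b-1), with 1 point per library and bars for mean ± SD. All ref2-1 points lie below those of every other genotype in the 3 antenna panels, in the photosystem panels they overlap 1 or more of the triple mutants, and in the Rubisco panel 2 of the ref5-1 points, 18550 and 19740 CPM, are the lowest of all.

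Against wild type, 15 of the 44 genes (34.1%) fell in ref2-1 and none rose, where 11.2% of all tested genes fell and 13.5% rose (edgeR's quasi-likelihood test, Benjamini-Hochberg adjusted p under 0.05). The fitted log2 fold change was negative for 43 of the 44, with a median of -0.24, a change of -15.4%, whereas the median over all tested genes was 0.00. The medians were negative in each of the 6 complexes, from -0.26 in LHCI to -0.19 in RBCS and the minor antennae. From ratios of mean CPM, the minor antenna median was -0.10 without wild type replicate 3, and that of RBCS was -0.12 without ref2-1 replicate 2 and -0.29 without replicate 3. In 32 genes (72.7%) all 3 ref2-1 libraries lay below all 3 wild type libraries, which held for 20.8% of all tested genes. The libraries lay wholly above wild type in 1 gene, LHCB4.3, and in 22.2% of all genes. The count of calls rests partly on single libraries: it was 7 without ref2-1 replicate 1 and 8 without replicate 2, with median log2 fold changes of -0.21 and -0.23.

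In ref5-1 none of the 44 genes was called against wild type, where 5.12% of all tested genes rose and 3.6% fell. At an unadjusted p under 0.05, 6 were higher and 4 lower in edgeR, with 22.6% of all tested genes past it in either direction, a share like that of the 44. DESeq2 called 2. The median log2 fold change was 0.02. The ref5-1 libraries lay wholly above wild type for LHCB1.1, LHCB1.2, LHCB1.3 and LHCB2.2 and wholly below it for PSAH2, PSBQ1, PSBQ2 and RBCS1A, 9.09% of the 44 each way, against 14% and 13.3% of all genes. Without ref5-1 replicate 3 the count of calls was 2, and without replicate 2 it was 1. Nor was any called in med5 against wild type, where 0.337% of all genes rose and 0.442% fell. There 3 genes were higher at an unadjusted p under 0.05, which 12.3% of all genes passed in either direction, DESeq2 called 0, and 39 of the 44 log2 fold changes were positive with a median of 0.08. Libraries did not overlap for LHCB1.1, above wild type, and PSBQ2, below it, against 10.3% and 10% of all genes.

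Placed directly against each other, ref5-1 exceeded ref2-1 in 23 of the 44 genes (52.3%), with 10.4% of all tested genes higher and 11% lower. The gene LHCB4.3 alone was lower. The median log2 fold change was 0.26, and in 28 genes (63.6%) the libraries of ref5-1 lay wholly above those of ref2-1, against 15.4% of all genes. For LHCB4.3 they lay wholly below, as for 18.6% of all genes. The 24 calls became 11 without ref2-1 replicate 1, 14 without ref5-1 replicate 1, 16 without replicate 2 of either genotype and 10 when the fit held only these 6 libraries. Comparisons that name the same genotype share its libraries, as this one and ref2-1 against wild type do. Of the 11 genes with the CCAATC hexamer 9 were called higher in ref5-1 than in ref2-1, and of the 33 without it 14, given as a description without a test. For ref2-1 against wild type, 6 of the 11 and 9 of the 33 were called lower. Of the 11 genes, 10 are antenna genes, so this split largely follows antenna membership. Any part of the hexamer itself was not tested.

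With the med5 alleles added to ref2-1, LHCA1, LHCB1.2 and PSAE2 rose (3 genes, 6.82% of the 44, against 4.65% of all genes called higher and 4.26% lower). In 23 of the 44 (52.3%) the ref2-1 med5 libraries lay wholly above those of ref2-1, compared with 15.4% of all genes, and the median log2 fold change was 0.17. PSBO2 lay wholly below, as did 15.5% of all genes. LHCB1.2 alone was called when any of these libraries but ref2-1 replicate 3 was left out. In ref5-1 med5 against ref5-1, RBCS1A rose and no other gene was called, with 6.09% of all genes higher and 4.71% lower. None of the 44 had libraries wholly above ref5-1 and 3 had them below, LHCB2.3, LHCB5 and PSBO2, against 14.1% and 12.9% of all genes.

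In the med5 background, 4 of the 44 genes (9.09%) fell in ref2-1 med5 compared with med5, namely LHCB2.3, PSBO2, PSBQ1 and RBCS2B, while 7.52% of all genes fell and 8.75% rose. All 44 log2 fold changes were negative, from -0.54 to -0.01 with a median of -0.17, and 17 genes (38.6%) had non-overlapping lower libraries and none higher ones, against 17.8% and 20.1% of all genes. DESeq2 called 11, and the count was 2 without med5 replicate 3 or without ref2-1 med5 replicate 2. In ref5-1 med5 compared with med5, LHCA1 and LHCB5 fell (4.55% of the 44), with 4.2% of all genes falling and 6.24% rising. Libraries lay wholly below med5 for 6 of the 44 and above it for none, against 13.8% and 14.1% of all genes. The count was 1 without ref5-1 med5 replicate 1, the library with many multi-aligned reads, and 0 without its replicate 3 or without med5 replicate 3.

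Whether the effect of ref2-1 or ref5-1 differs with MED5 was tested as an interaction. No gene of the 44 was called in either, where 0.749% and 0.0905% of all genes were called in either direction. In edgeR 1 gene of the 44 had an unadjusted p under 0.05 for ref2-1, where 16.0% of all genes did, and 6 for ref5-1, where 8.71% did. DESeq2 called 0 in each. The smallest adjusted p-values in edgeR were 0.270 for LHCB1.2 with ref2-1 (interaction log2 0.40 ± 0.18 SE) and 0.444 for LHCA2 with ref5-1 (-0.38 ± 0.15). A difference between the genotype effects with and without MED5 was thus not shown.

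**Figure D2:**
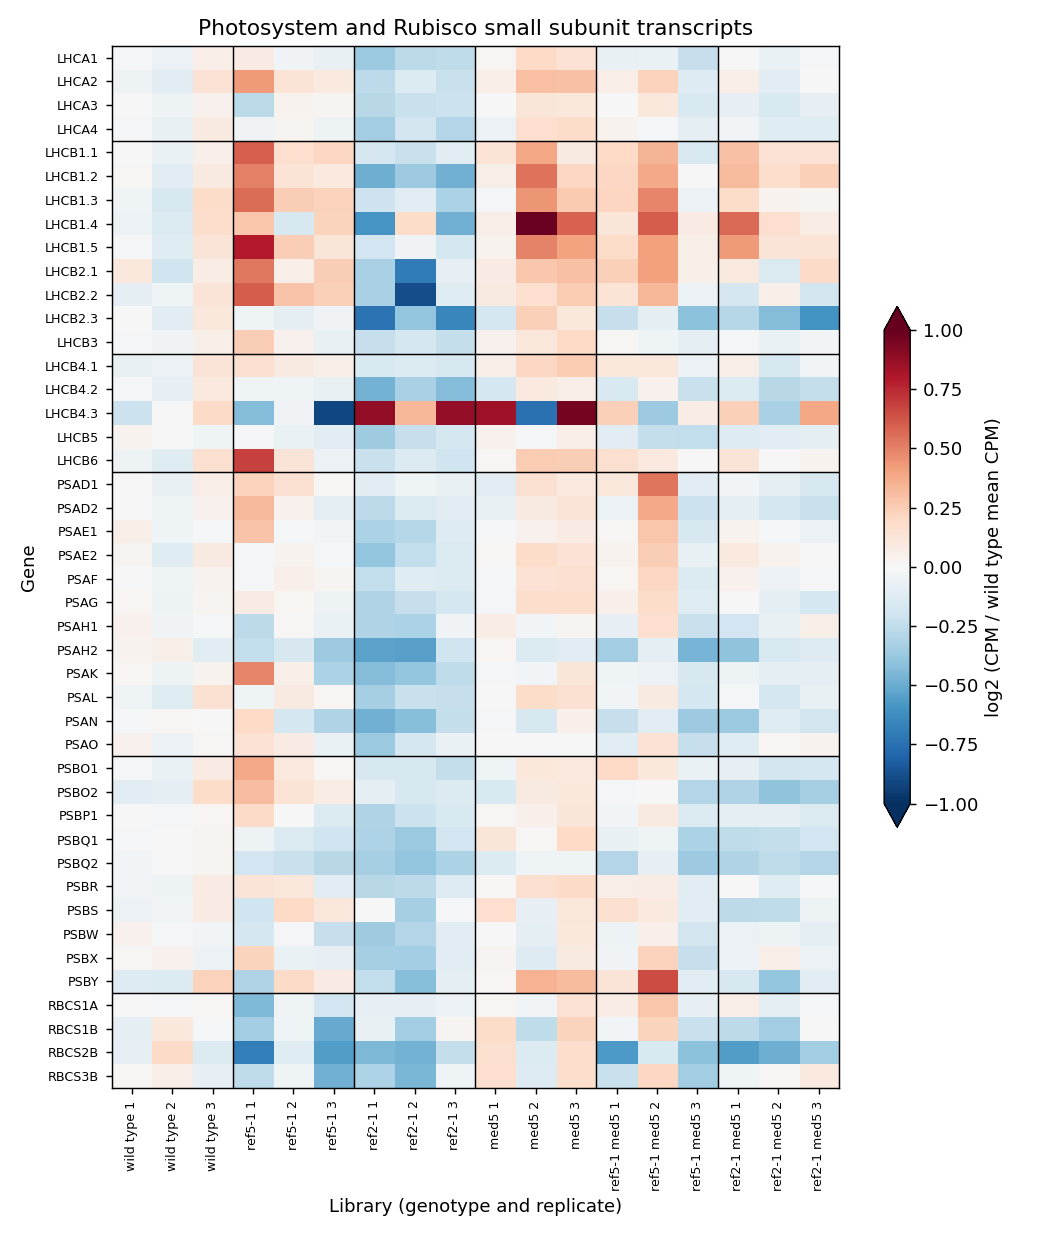
Level of each of the 44 genes (rows, grouped by complex) in each of the 18 libraries (columns) as log2 of CPM over the wild type mean, with colours limited to -1 to 1. The ref2-1 columns are mostly blue, LHCB4.3 excepted, and the LHCII block is redder in ref5-1 replicate 1 than in replicates 2 and 3.

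The LHCI antenna genes encode the light-harvesting proteins bound to photosystem I. LHCA1 (AT3G54890) was counted at 5773, 5566 and 6087 CPM in wild type and at 4498, 4825 and 4873 CPM in ref2-1. In ref2-1 med5 it stood at 5807, 5558 and 5741 CPM. The ref2-1 libraries lay below both other groups without overlap. LHCA1 fell 1.23-fold in ref2-1 against wild type (log2 -0.30 ± 0.07 SE, adjusted p = 0.00699, edgeR) and was 1.21-fold higher in ref2-1 med5 than in ref2-1 (log2 0.27 ± 0.07, adjusted p = 0.0306). In ref5-1 it was at 6148, 5676 and 5513 CPM, overlapping wild type, and it exceeded ref2-1 1.22-fold (adjusted p = 0.00946, edgeR).

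LHCA1 also fell in ref5-1 med5, at 5522, 5545 and 4957 CPM, against med5, at 5876, 6676 and 6421 CPM (log2 -0.24 ± 0.07, adjusted p = 0.0432, edgeR). LHCA3 and LHCA4 fell in ref2-1 against wild type as well, by 0.24 ± 0.09 and 0.27 ± 0.08 on the log2 scale. LHCA2 was the member of this antenna furthest apart between ref5-1 and ref2-1. It was counted at 3732, 3060 and 2970 CPM in ref5-1 and at 2321, 2528 and 2388 CPM in ref2-1, 1.35-fold higher without overlap (log2 0.43 ± 0.11, adjusted p = 0.00684, edgeR). Per kilobase of exon, LHCA4 had the highest wild type level of the 4, 5469 CPM, and LHCA2 the lowest, 1974 CPM.

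LHCII forms the trimers that collect most of the light for photosystem II, from the products of the LHCB1, LHCB2 and LHCB3 genes. Its sum was 38660, 36220 and 42320 CPM in wild type, 55600, 43540 and 43290 in ref5-1 and 32230, 33410 and 32530 in ref2-1. The ref5-1 libraries lay highest of the 3 groups and ref2-1 lowest, with no overlap between them. The ref5-1 range was overlapped by med5, at 40140 to 51310 CPM, ref5-1 med5, at 37530 to 49490, and ref2-1 med5, at 40150 to 44420. All these sums lack multi-aligned reads. Replicate 1 of ref5-1 stood above the other two. Between ref5-1 and ref2-1, 8 of the 9 genes were called higher in ref5-1, with LHCB1.4 not called, and the median log2 fold change was 0.55. Against wild type the LHCII median was 0.29 in ref5-1, with 8 of 9 values positive and none called. Without ref5-1 replicate 1 it was 0.16, with 7 of 9 positive, taken from the ratios of mean CPM. The LHCII median was -0.25 in ref2-1 against wild type, with all 9 negative and 2 called.

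LHCB2.3 (AT3G27690), an LHCB2 copy on chromosome 3 that shared no 50-base stretch with another transcript, had the smallest adjusted p of the 44 genes in ref2-1 against wild type. It was counted at 1757, 1634 and 1891 CPM in wild type and at 1057, 1336 and 1121 CPM in ref2-1. The groups did not overlap, and the 1.503-fold decrease gave log2 -0.59 ± 0.11 SE and an adjusted p of 0.00107 (edgeR). In med5 it was at 1560, 2072 and 1893 CPM and in ref2-1 med5 at 1444, 1304 and 1164 CPM. These groups did not overlap either, and LHCB2.3 fell 1.41-fold (log2 -0.50 ± 0.11, adjusted p = 0.00743, edgeR). Levels in ref5-1, 1712, 1655 and 1720 CPM, were within the wild type range, and those in ref5-1 med5 were 1498, 1641 and 1328 CPM. The gene AT3G27700 overlaps LHCB2.3 on the opposite strand.

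LHCB1.2 (AT1G29910) had the smallest adjusted p between ref2-1 and its med5 triple mutant. It was counted at 2879, 3154 and 2903 CPM in ref2-1 and at 5029, 4583 and 4770 CPM in ref2-1 med5. All ref2-1 med5 libraries were also above wild type, which had 4071, 3769 and 4302 CPM. LHCB1.2 fell 1.36-fold in ref2-1 against wild type (log2 -0.44 ± 0.13, adjusted p = 0.0144, edgeR) and rose 1.61-fold in ref2-1 med5 against ref2-1 (log2 0.69 ± 0.13, adjusted p = 0.00246, edgeR). The latter call held under every alternative run. In ref5-1, at 5724, 4438 and 4340 CPM, it exceeded ref2-1 1.62-fold (log2 0.70 ± 0.13, adjusted p = 0.000706, edgeR).

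A ratio of copies within a library does not depend on library scaling, though it shares the limit of multi-aligned reads. LHCB1.2 counts per LHCB1.3 count were 0.378, 0.380 and 0.342 in wild type, 0.300, 0.308 and 0.327 in ref2-1 and 0.399, 0.403 and 0.421 in ref2-1 med5. The ref2-1 ratios lay below and the ref2-1 med5 ratios above those of wild type. With 3 libraries against 3, a two-sided exact permutation test cannot give a p below 0.10, so no test was made on ratios. The 5 LHCB1 copies together summed to 26250 ± 2352 CPM (SD, n = 3) in wild type, 33070 ± 5393 in ref5-1, 22470 ± 1148 in ref2-1 and 29530 ± 2206 in ref2-1 med5. The sum had the order seen for LHCB1.2 between ref2-1 and ref2-1 med5, with 21620 to 23780 CPM in the former and 28220 to 32080 in the latter. It includes LHCB1.2, so it is not an independent check on that gene.

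**Figure D3:**
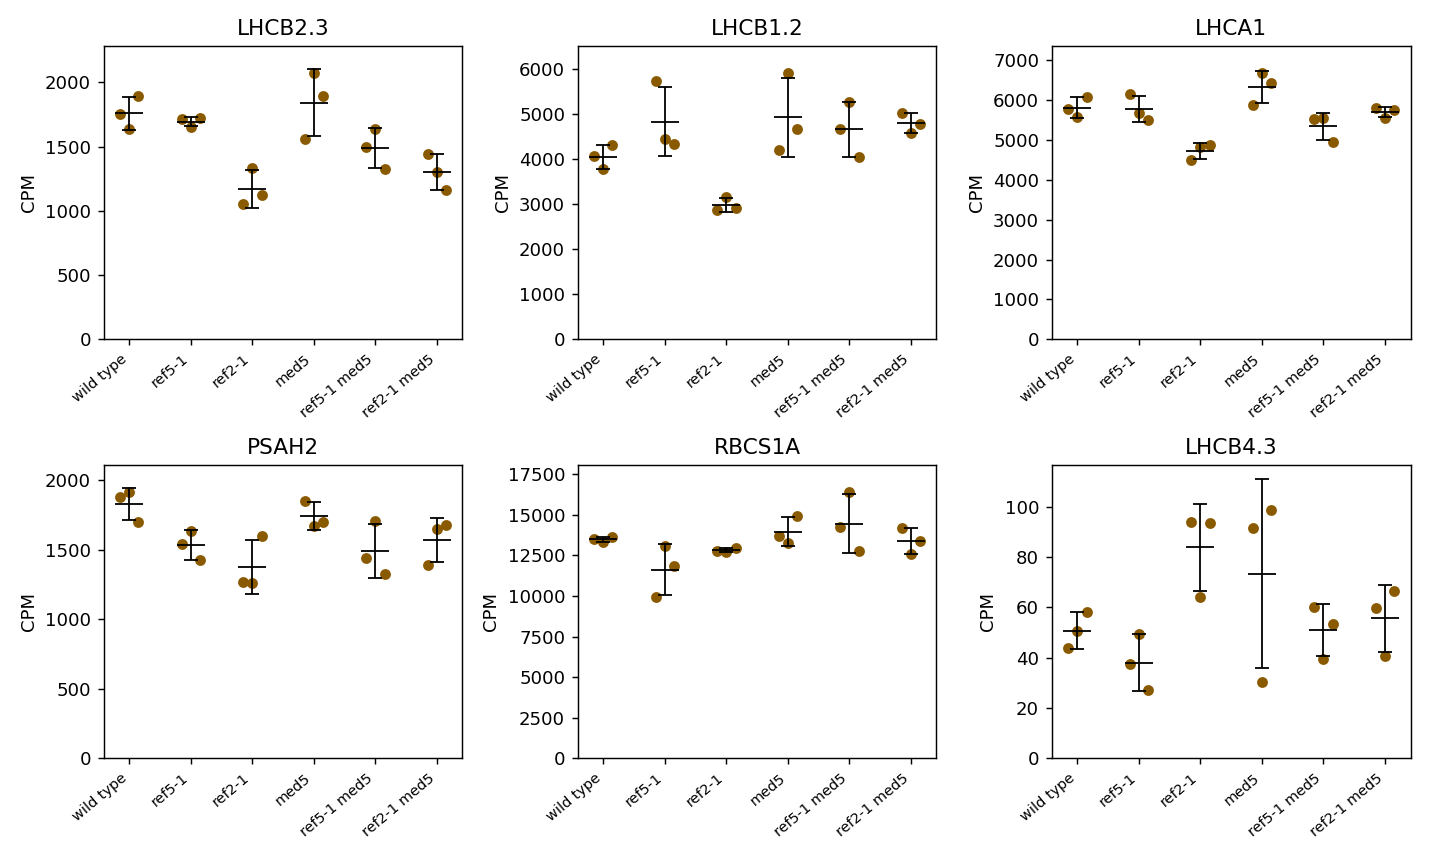
CPM of 6 genes (y axis) in the 6 genotypes (x axis), with 1 point per library and bars for mean ± SD. LHCB2.3, LHCB1.2 and LHCA1 are lowest in ref2-1, RBCS1A is lowest in ref5-1 replicate 1 at 9960 CPM, and LHCB4.3 varies widely within med5, from 30.3 to 98.5 CPM.

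LHCB2.2 had the largest log2 fold change of the 44 genes between ref5-1 and ref2-1 among those called higher. LHCB2.2 (AT2G05070) was at 3613, 2892 and 2792 CPM in ref5-1 and at 1893, 1280 and 2177 CPM in ref2-1, a 1.74-fold difference without overlap (log2 0.80 ± 0.16, adjusted p = 0.00154, edgeR). It lay at 2220, 2298 and 2598 CPM in wild type, below all ref5-1 libraries, but was not called there (adjusted p = 0.143, edgeR). The 3 LHCB2 copies summed to 6754 ± 519 CPM in wild type, 8004 ± 959 in ref5-1 and 5015 ± 772 in ref2-1. LHCB1.4 (AT2G34430), the LHCB1 copy with the lowest level per kilobase, had the largest positive log2 fold change of the 44 genes in med5 against wild type, 0.60 ± 0.25, and was not called (adjusted p = 0.329, edgeR). Its med5 libraries, 1468, 2771 and 2107 CPM, overlapped the wild type range of 1272 to 1581 CPM.

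The minor antennae LHCB4, LHCB5 and LHCB6 link LHCII to the photosystem II core. LHCB4.2 (AT3G08940) was counted at 1825, 1755 and 1980 CPM in wild type and at 1336, 1483 and 1369 CPM in ref2-1. It fell 1.33-fold without overlap (log2 -0.41 ± 0.09, adjusted p = 0.00197, edgeR), and in ref5-1 it was within the wild type range, at 1797, 1795 and 1759 CPM. LHCB5 (AT4G10340) fell from 7243, 7055 and 6858 CPM in wild type to 5516, 5997 and 6246 CPM in ref2-1, without overlap (log2 -0.25 ± 0.07, adjusted p = 0.0107, edgeR). It also fell in ref5-1 med5, at 6518, 5977 and 5933 CPM, against med5, at 7270, 6939 and 7403 CPM (log2 -0.23 ± 0.07, adjusted p = 0.0369, edgeR).

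LHCB4.3 (AT2G40100), a rarer LHCB4 form, was the gene called opposite to the others between ref5-1 and ref2-1. In wild type it had the lowest level of the 44 per kilobase of exon, 35.1 CPM, where RBCS1A had the highest, 10640 CPM. It was counted at 43.7, 50.6 and 58.1 CPM in wild type, 37.7, 49.4 and 27.1 in ref5-1 and 93.8, 63.9 and 93.6 in ref2-1. The ref2-1 libraries were above both other groups, whereas the other 43 log2 fold changes of ref2-1 against wild type were negative. LHCB4.3 was 2.198-fold lower in ref5-1 than in ref2-1 (log2 -1.14 ± 0.38, adjusted p = 0.0487, edgeR), a call at the threshold. It was lost in 9 of 12 alternatives, with an adjusted p of up to 0.139 in edgeR, and on leaving out any library but ref5-1 replicate 2. Against wild type the ref2-1 difference was not called (log2 0.72 ± 0.37, adjusted p = 0.184, edgeR). Its counts per LHCB4.1 count were 0.0250 to 0.0371 in ref2-1 and 0.0164 to 0.0189 in wild type. The med5 libraries, 91.3, 30.3 and 98.5 CPM, spanned nearly the whole range of the gene.

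Of the photosystem I subunits, 5 of 12 fell in ref2-1 against wild type, and all 12 log2 fold changes were negative, with a median of -0.24. PSAH2 (AT1G52230), a subunit at the docking site for LHCII, was counted at 1880, 1910 and 1699 CPM in wild type and at 1264, 1259 and 1598 CPM in ref2-1. It fell 1.33-fold without overlap (log2 -0.41 ± 0.11, adjusted p = 0.00953, edgeR). In ref5-1 it was at 1542, 1634 and 1423 CPM, also below every wild type library, but not called (adjusted p = 0.167, edgeR). The others called were PSAN, which is involved in plastocyanin docking, PSAL, PSAE2 and PSAG, with log2 fold changes of -0.38 to -0.23.

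PSAE2 (AT2G20260), one of the copies of the stromal subunit PsaE, was at 271, 301 and 324 CPM in ref2-1 and at 382, 365 and 358 CPM in ref2-1 med5. The groups did not overlap, and it rose 1.23-fold (log2 0.30 ± 0.09, adjusted p = 0.0370, edgeR). Between ref5-1 and ref2-1, PSAE1, PSAE2, PSAG, PSAK and PSAL were called higher in ref5-1. PSAK (AT1G30380), at 1874, 1389 and 1071 CPM in ref5-1 and 990, 1022 and 1119 CPM in ref2-1, was called with overlapping libraries (log2 0.47 ± 0.13, adjusted p = 0.0144, edgeR). Replicate 1 was the highest of the ref5-1 libraries. The summed photosystem I genes per photosystem II count ranged only from 0.796 to 0.903 over the 18 libraries.

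**Figure D4:**
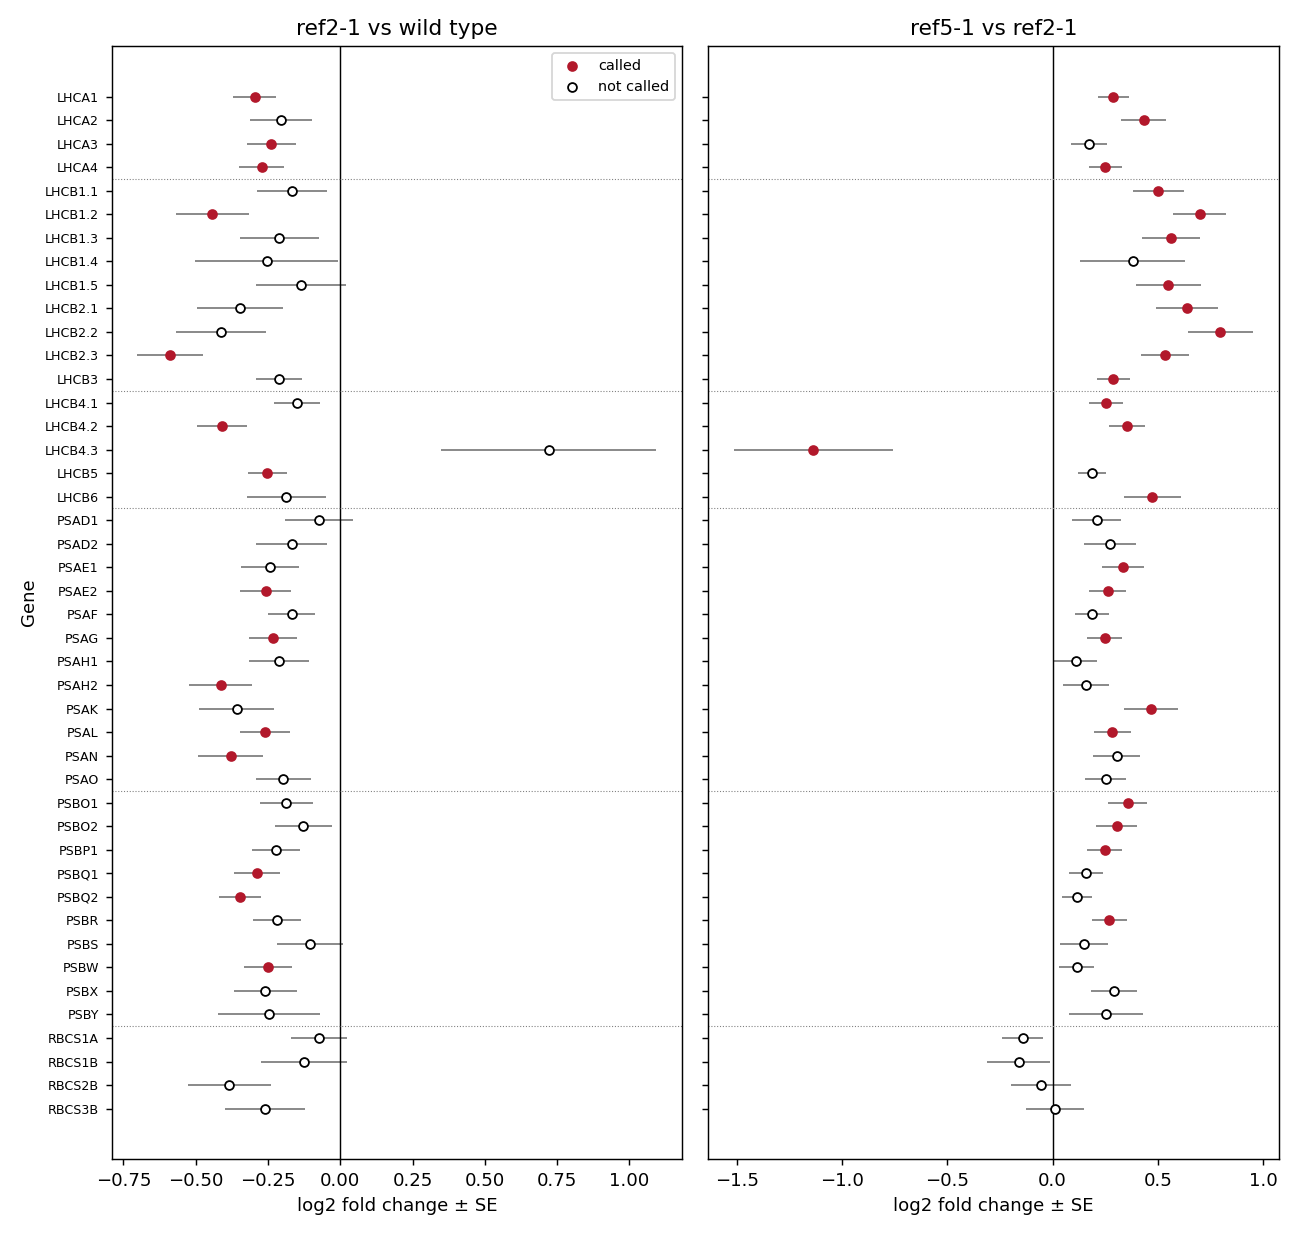
Log2 fold change ± SE (x axis) of the 44 genes (y axis, grouped by complex) for ref2-1 against wild type (left) and ref5-1 against ref2-1 (right), filled where called. Values on the left are negative for all but LHCB4.3, and on the right the 4 RBCS genes lie near 0, from -0.16 to 0.01, while the LHCII genes lie between 0.29 and 0.80.

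Among the photosystem II genes, PSBQ1, PSBQ2 and PSBW fell in ref2-1. PSBO, PSBP and PSBQ encode the extrinsic proteins of the oxygen-evolving complex. PSBQ2 (AT4G05180) was counted at 1955, 2003 and 2031 CPM in wild type and at 1589, 1515 and 1607 CPM in ref2-1, a 1.27-fold decrease with no overlap (log2 -0.35 ± 0.07, adjusted p = 0.00177, edgeR). In ref5-1 it was at 1749, 1709 and 1651 CPM. These libraries also lay below all wild type libraries, and the adjusted p of 0.0535 was the smallest of the 44 genes in that comparison (log2 -0.23 ± 0.07, edgeR).

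PSBQ1 (AT4G21280) fell both in ref2-1 against wild type (log2 -0.29 ± 0.08, adjusted p = 0.0125) and in ref2-1 med5 against med5 (log2 -0.34 ± 0.08, adjusted p = 0.00849, edgeR). It was at 1607, 1493 and 1701 CPM in med5 and at 1239, 1255 and 1295 CPM in ref2-1 med5, again without overlap. PSBO2 (AT3G50820) fell in ref2-1 med5 against med5 from 1494, 1758 and 1784 CPM to 1341, 1253 and 1316 CPM (log2 -0.36 ± 0.10, adjusted p = 0.0186, edgeR). Its counts per PSBO1 count were 0.300 to 0.313 in ref2-1 med5 and 0.300 to 0.326 in ref5-1 med5, and 0.325 to 0.376 in the other 4 genotypes. PSBS, the subunit needed for thermal dissipation of excess light, was not called in any comparison, with log2 fold changes from -0.26 to 0.15. From ref2-1 to ref5-1, 4 of the 10 genes were higher in ref5-1, PSBO1, PSBO2, PSBP1 and PSBR.

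The RBCS genes, which encode the Rubisco small subunit, had no call in ref5-1 or ref2-1 against wild type or between these mutants. RBCS1A (AT1G67090), the copy with the highest level, was counted at 13510, 13330 and 13620 CPM in wild type, 9960, 13060 and 11840 in ref5-1 and 12760, 12720 and 12980 in ref2-1. All libraries of both mutants lay below wild type, but neither difference was called, with adjusted p-values of 0.201 and 0.636 (edgeR). In ref5-1 med5 it was at 14240, 16370 and 12740 CPM, overlapping ref5-1, and was called 1.24-fold higher than in ref5-1 (log2 0.31 ± 0.10, adjusted p = 0.0471, edgeR). In edgeR that call was lost without ref5-1 replicate 1 (log2 0.21, adjusted p = 0.207), without ref5-1 replicate 3, without ref5-1 med5 replicate 1 or 2, and in 5 further alternatives, among them relative log expression scaling.

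RBCS2B (AT5G38420) had lower mean counts in the 4 genotypes with a ref allele than in wild type and med5, and was called in 1 comparison. It was counted at 3209, 3883 and 3091 CPM in wild type, 2101, 3121 and 2302 in ref5-1 and 2485, 2440 and 2884 in ref2-1. Against wild type the adjusted p was 0.0683 for ref5-1 (log2 -0.44 ± 0.14) and 0.0598 for ref2-1 (log2 -0.38 ± 0.14, edgeR). In med5 it stood at 3790, 3086 and 3838 CPM, in ref5-1 med5 at 2276, 3059 and 2555 and in ref2-1 med5 at 2300, 2415 and 2673. Both triple mutants lay below med5 without overlap. RBCS2B fell in ref2-1 med5 (log2 -0.54 ± 0.14, adjusted p = 0.0177, edgeR) and was not called in ref5-1 med5 (log2 -0.44 ± 0.14, adjusted p = 0.0589).

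The balance of RBCS and LHCII was also read within each library, from sums that lack multi-aligned reads. RBCS counts per LHCII count were 0.634, 0.704 and 0.573 in wild type, 0.334, 0.547 and 0.456 in ref5-1 and 0.679, 0.628 and 0.725 in ref2-1. Every ref5-1 library lay below every library of wild type and ref2-1, and replicate 1 lay lowest. The ratio was 0.656, 0.456 and 0.599 in med5, 0.540 to 0.576 in ref5-1 med5 and 0.536 to 0.6 in ref2-1 med5. The LHCII counts per photosystem II count were 1.57 to 1.72 in wild type and 1.54 to 1.70 in ref2-1, and lay above wild type without overlap in ref5-1, at 1.79 to 2.18, in ref5-1 med5, at 1.78 to 1.96, and in ref2-1 med5, at 1.89 to 2.06. In med5 the mean was 1.87 ± 0.210 (SD, n = 3), and the lowest library, 1.70, overlapped wild type. In ref5-1 against wild type all 4 RBCS log2 fold changes were negative, with a median of -0.27, and the LHCII median was 0.29, or 0.16 without ref5-1 replicate 1.

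**Figure D5:**
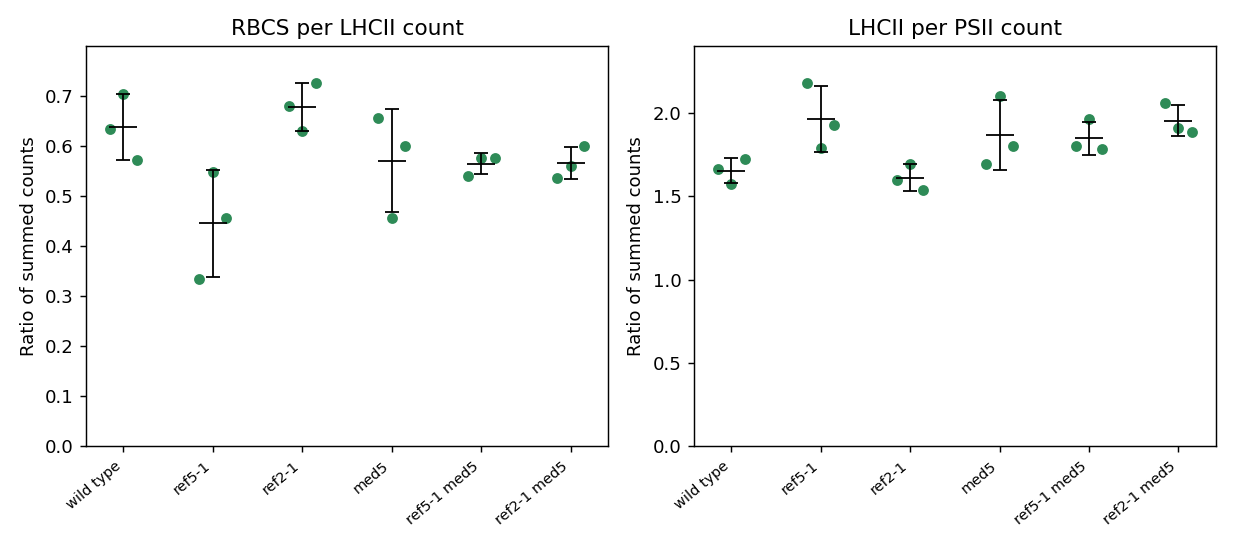
Ratio of summed RBCS to summed LHCII counts (left) and of summed LHCII to summed photosystem II counts (right) in each library, by genotype, with bars for mean ± SD. The 3 ref5-1 points, 0.334 to 0.547 on the left and 1.79 to 2.18 on the right, do not overlap those of wild type, and on the right the points of both triple mutants, 1.78 to 2.06, also lie above wild type.

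Other photosynthesis genes were taken as lists beside the 44. Of 19 chlorophyll synthesis genes, 10 fell in ref2-1 against wild type and none rose, with a median log2 fold change of -0.24. They included CHLM and HEMB1, with log2 fold changes of -0.32 and -0.29, and PORA, at -1.77. PORA was at only 7.07 ± 1.42 CPM in wild type and 2.04 ± 0.922 in ref2-1. Its mean was also below wild type in every other mutant, at 1.69 to 4.495 CPM. Of 16 Calvin-Benson cycle genes 3 fell in ref2-1, GAPA2, the Rubisco activase RCA and SBPASE. Of 13 genes of electron transport and ATP synthase 1 fell, PGRL1A, where 11.2% of all tested genes fell. Calls were not confined to comparisons with ref2-1. Against wild type, ref5-1 had 0 of 19, 2 of 16 and 0 of 13 called lower, where 3.6% of all genes fell. Against med5, ref5-1 med5 had 6 of 19, 0 of 16 and 2 of 13 called lower, where 4.2% of all genes fell. There 18 of the 19 chlorophyll synthesis log2 fold changes were negative, with a median of -0.19. In ref2-1 med5 against med5 these counts were 14 of 19, 12 of 16 and 6 of 13, all lower, with medians of -0.32, -0.34 and -0.21, where 7.52% of all genes fell. Between ref5-1 and ref2-1, 2 of 19, 1 of 16 and 2 of 13 were higher, and 1 of 13, FNR2, was lower, where 10.4% and 11% of all genes were higher and lower. In these last comparisons 4 and 24 of the 44 photosystem and Rubisco genes were called, as given above.

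Of the 10 chloroplast-encoded photosynthesis genes none was called in ref2-1 or ref5-1 against wild type (edgeR), with median log2 fold changes of 0.69 and 0.83. Their summed level was 186 to 225 CPM in wild type, 264 to 399 in ref2-1 and 128 to 1877 in ref5-1 med5. Poly(A) selection keeps few chloroplast transcripts, so these sums are poor measures of them. Among 16 regulators of chloroplast and light responses, the GATA factor CGA1 and the light-response factor HY5 rose in ref2-1 against wild type, by log2 0.78 and 0.58, and the clock factor CCA1 fell by 0.35. These calls, 2 of 16 higher and 1 of 16 lower, were no larger a share than the 13.5% and 11.2% of all genes. HY5 was at 9.975 ± 0.174 CPM in wild type, 14.87 ± 0.495 in ref2-1 and 14.18 ± 2.38 in ref5-1, so its higher level was not particular to ref2-1. Against wild type, 2 of the 16 were called higher in ref5-1 and 0 lower, where 5.12% and 3.6% of all genes were. The antenna regulators GLK1 and GLK2 were at 211 ± 18.5 and 145 ± 8.46 CPM in wild type and 218 ± 17.5 and 148 ± 8.33 in ref2-1. CCA1 was also higher in ref5-1 than in ref2-1, by log2 0.39, as were SIG5 and PIF3, while CGA1 was lower by 0.45. The calls there were 3 of 16 higher and 1 of 16 lower, where 10.4% of all genes were higher and 11% lower.

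Other lists also differed in ref2-1. All 8 genes of salicylate defence rose in ref2-1 against wild type, and their sum was 658 to 940 CPM compared with 55.5 to 70.0 CPM, where 13.5% of all genes rose. This sum also lay wholly above wild type in ref5-1, at 104 to 125 CPM, in med5, at 88.0 to 220 CPM, in ref5-1 med5, at 146 to 378 CPM, and in ref2-1 med5, at 242 to 512 CPM. Against wild type 2 of the 8 genes were called higher in ref5-1 and 1 in med5, where 5.12% and 0.337% of all genes rose. In ref2-1 med5 against med5, where all 44 photosystem and Rubisco log2 fold changes were negative and 4 were called, 5 of the 8 were called higher, with 8.75% of all genes rising. Of 9 senescence and chlorophyll breakdown genes tested, NYC1 and SAG13 rose in ref2-1 and 0 fell, where 13.5% of all genes rose. The median log2 fold change of the 9 was 0.18, and 3 values were negative, down to -2.2. Markers of cell types other than mesophyll numbered 17, of which 15 were tested. Among them TMM, FAMA, CESA7, PDF1 and XCP1, from stomatal lineage, epidermis and xylem, fell in ref2-1, 5 of 15 where 11.2% of all genes fell, and the summed level of the list was 673 to 714 CPM, against 823 to 904 in wild type. The mesophyll marker RCA fell too, from 11250 ± 383 to 9012 ± 447 CPM, whereas CA1 stood at 4316 ± 96.3 and 3938 ± 388 CPM. The part that any of these had in the photosystem results was not tested.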

How the data were processed

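Gene counts were deposited by the authors as whole numbers, 1 column per library. Per the submitters' processing notes, the tools used were Trimmomatic, TopHat2 2.1.0, HTSeq 0.6.1 and edgeR, with the TAIR10 genome. Options, annotation and strand setting were not given in the sources used here. Per the labels' protocols and the series' design text, libraries were made from poly(A) RNA with a stranded kit and sequenced on a HiSeq 2500. The 5 summary lines of the table were left out of library sizes. They held 0.775% to 1.44% of reads without a feature, 0.648% to 1.37% ambiguous and 3.71% to 25.4% aligned in several places.

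From the deposited counts, genes were filtered with edgeR's filterByExpr, scaled by TMM and fitted with the robust quasi-likelihood model over all 18 libraries without covariates (R 4.3.3, edgeR 4.0.16). The 8 comparisons of 2 genotypes and 2 interactions were tested, with Benjamini-Hochberg adjustment over 19897 genes and calls at an adjusted p under 0.05. CPM use TMM-scaled library sizes, levels per kilobase use the summed exon length in RefSeq, and standard errors were derived from the fold change and F statistic. The scripts were tested on simulated data. Alternatives were relative log expression scaling, DESeq2 1.42.0, no filter on low counts, a replicate block, a fit of only the libraries compared, leaving out each library and, added after seeing the data, scaling on genes other than the 44 and those of the chloroplast, and medians of each complex without single libraries. All 44 genes could be named. From the other lists up to 4 called genes with the smallest adjusted p were named, and the remaining names were chosen after their values were seen. The 44 genes and the lists were chosen with earlier results of these data known. Sequences are from RefSeq's TAIR10.1 assembly, matched by gene ID for all 44 genes.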

Additional observations from a re-analysis of the deposited data

How the results depend on the processing

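Counts of called genes among the 44 depended on the processing. Of the recomputed values for single called genes, 440 kept their call, 148 lost it and 0 reversed. These values cover only genes that already had a call, so they do not show how stable the other directions were. In ref5-1 against wild type, the medians of LHCI, photosystem I and photosystem II changed sign without some single libraries. Those of LHCII and RBCS kept their sign. That of the minor antennae stayed negative too, but was only -0.005 without wild type replicate 3. With DESeq2 the count in ref5-1 against wild type was 2 instead of 0, in ref5-1 med5 against ref5-1 2 instead of 1, in ref5-1 med5 against med5 4 instead of 2, and in ref2-1 med5 against med5 11 instead of 4. The single call in ref5-1 med5 against ref5-1 became 0 under relative log expression scaling, without the filter on low counts, with only the libraries compared, and with scaling on all other nuclear and mitochondrial genes, which was chosen after seeing the data. The 2 calls in ref5-1 med5 against med5 became 0 without the filter and with only the libraries compared, and the 24 in ref5-1 against ref2-1 became 10 with only the libraries compared.

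When each library was left out in turn, counts ranged from 0 to 2 in ref5-1 against wild type, 7 to 18 in ref2-1 against wild type, 0 to 1 in ref5-1 med5 against ref5-1, 1 to 3 in ref2-1 med5 against ref2-1, 0 to 3 in ref5-1 med5 against med5, 2 to 5 in ref2-1 med5 against med5, 11 to 24 in ref5-1 against ref2-1 and 0 to 1 in the ref2-1 interaction, where the 1 call came without med5 replicate 2. Med5 against wild type and the ref5-1 interaction stayed at 0. Where leaving out a library reduced a count, fewer samples were fitted. LHCB2.3 in ref2-1 against wild type and LHCB1.2 in ref2-1 med5 and in ref5-1 against ref2-1 were called under each alternative.

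With the replicate number as a block, ref2-1 against wild type had 13 calls, ref5-1 against ref2-1 had 21, ref5-1 med5 against ref5-1 had 0 and ref5-1 med5 against med5 had 1. The numbers share no stated source, and the deviations of same-numbered libraries from their genotype means correlated between -0.19 and 0.35 (median 0.04), so the numbers were not taken as pairs.

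Multi-aligned reads limit the counts of LHCB1, LHCB2 and RBCS copies that share sequence, and the sums and ratios built from them. Over all genes such reads made up 5.21% to 5.77% in wild type, 5.34% to 7.14% in ref5-1 and 4.94% to 8.91% in ref2-1. How far their loss moved the sums was not tested. LHCB4.3 varied by 37.5 CPM (SD, n = 3) on a mean of 73.4 CPM in med5. Scaling the libraries on other genes moved the median of the 44 in ref2-1 against wild type from -0.24 to -0.25.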
